A study of Homo sapiens with 58 samples.

Results

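Contractile and muscle filament genes were followed as H1 cells, a line of human embryonic stem cells, were led towards somites. The group holds 10 genes chosen by symbol, DES, ACTA2, ACTC1, ACTG2, TAGLN, CNN1, TPM1, TPM2, MYL9 and MYL7, and all 10 were found among the 19084 genes of the deposited tables. They were chosen with earlier results of these data known. All 10 passed the filter on low counts in both series of libraries.

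RNA-seq of total RNA from wild-type H1 cells at passages 30 to 40 gave 58 libraries. In the daily series, 3 libraries were made on each of 4 days. Day0 cells were undifferentiated in E8 medium, and Day1 cells, labelled mesendoderm, had 24 h of E8 with 100 ng/mL activin A and 3 µM of the Wnt activator CHIR99021. Day2 cells, labelled presomitic mesoderm, had then been in E6 medium with 2 µM of the TGFβ receptor inhibitor A83-01, 3 µM CHIR99021, 100 ng/mL FGF2 and 100 ng/mL of the BMP antagonist NOGGIN. Day3 cells, labelled somite, were in E6 that held 100 ng/mL NOGGIN, 2 µM A83-01, the Wnt inhibitor IWR1 at 2.5 µM and the MEK inhibitor PD0325901 at 1 µM. A time course of cells labelled presomitic mesoderm gave 2 libraries every 30 min from 30 to 690 min, 23 times in all, and the labels name neither its medium nor its zero point. All groups are 1 wild-type line. Whether replicates came from separate cultures is not stated in the labels, and the p-values therefore reflect the spread among libraries, part of which may be technical.

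Muscle contracts when myosin heads pull on thin filaments of actin. Tropomyosin lies along the actin filament and governs access of myosin, calponin and transgelin bind actin in smooth muscle, the regulatory light chains tune the myosin head, and desmin filaments tie the contractile lattice together. Many of these genes are targets of serum response factor (SRF), which binds a motif called the CArG box, and somite cells are the source of the skeletal muscle of the trunk.

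The actins resemble one another so closely that 1 read can fit several of them. POTEE and POTEF are primate genes whose last part is a copy of cytoplasmic actin. Sharing was measured on the GENCODE transcripts (release 29, GRCh38). Exact sharing was rare over whole transcripts. Of all 36-base windows, 0.656% for ACTC1 and 0.686% for ACTG2 also stood in another gene, and 0 for ACTA2. Exact sharing was not particular to the actins. TPM1 had a larger share (1.93%), TPM2 had 0.651% and MYL9 0.284%, and DES, TAGLN, CNN1 and MYL7 had 0. With up to 2 mismatches to any of ACTB, ACTG1, ACTA1, POTEE, POTEF and the other muscle actins, the share was 10.8% for ACTA2, 8.83% for ACTC1 and 8.70% for ACTG2. Set against their own related genes, TPM2 (2.72%), DES (2.67%, against VIM) and TPM1 (0.701%) had a smaller share of such windows. TAGLN (0.335%), MYL9 (0.355%), CNN1 (0) and MYL7 (0) had hardly any among the related genes compared. The expected counts were not whole numbers, within 0.005, in 58 of 58 libraries for ACTC1, in 57 for ACTA2 and for ACTG2, and in 4 for MYL7. Fractions were not particular to the actins: TPM1 had them in 58 libraries, TPM2 in 57, MYL9 in 50, DES in 39, CNN1 in 36 and TAGLN in 25. The 3 muscle actin values are uncertain wherever counting split shared reads.

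The CArG box, searched by name on both strands, was found ahead of 3 of these genes. RefSeq promoter windows of 300 bases (GRCh38.p14, 250 before to 50 after the start of the transcript) were at hand for 7 of the 10, in 11 windows, of which 3 held a box. Of all 35116 promoter windows in that table, 454 held one (1.29%). Each site is given with 10 bases on either side and the box in capitals.
ACTC1, chr15:34795639-34795668, minus strand, 109 bases ahead: gcgaaggggaCCAAATAAGGcaaggtggca
ACTG2, chr2:73892888-73892917, plus strand, 110 bases ahead: gaaaaaaccaCCTTATATGGtaatattgct
ACTG2, chr2:73892925-73892954, plus strand, 73 bases ahead: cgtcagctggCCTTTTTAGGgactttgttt
MYL7, chr7:44141374-44141403, minus strand, 61 bases ahead: ctgttcctctCCTTATTTGGaccttcaggt
The windows of ACTA2, CNN1, TPM1 and TPM2 held no exact match, and a match is a description of letters, not of binding.

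Depth was 3.16 to 7.81 M expected counts in the daily libraries and 2.53 to 8.96 M in the course. With 0 counts seen, up to 3 are allowed by counting error alone, which is 0.384 to 0.949 CPM on the days and 0.335 to 1.18 CPM in the course. CPM are counts scaled to the total of the library. Stem cell markers (5 genes summed) lay at 3465 to 3893 CPM on Day0 and 888 to 990 on Day3, while somite markers (5 genes) reached 557 to 695 CPM on Day3. Somite markers also reached 731 to 932 CPM at the end of the course, labelled presomitic mesoderm, from 8.73 to 20.4 at its start. The presomitic markers (6 genes) lay at 226 to 530 CPM on Day2 and 1149 to 1311 at the start of the course. Defining skeletal muscle regulators were nearly absent, since MYOD1, MYF5 and MYOG together never passed 0.570 CPM on any day and had 0 counts in the first and last 3 time points. The cardiac regulator NKX2-5 had 0 counts on all 4 days and at both ends of the course. It is 1 of 9 cardiac and lateral mesoderm markers, of which 5 were at 1 CPM or more on Day3. That list summed to 14.6 to 27.3 CPM on Day0 and 30.2 to 72.3 on Day3.

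Expression of every one of the 10 genes differed among the 4 days (edgeR quasi-likelihood F test, Benjamini-Hochberg adjusted p 0.000144 to 0.0221), where 43.6% of the 12765 genes tested did. The direction was upward from Day0. Between Day0 and Day2, 9 of 10 rose and 0 fell, against 8.3% of all tested genes called higher and 11.4% lower. Since the 10 were chosen with earlier results of these data known, such shares describe the group and do not test it. Members are not independent either: ACTA2 and ACTG2 correlate at r = 0.95 over the 12 daily libraries. A call here needs a fold change of at least 1 log2 unit in either direction beside an adjusted p under 0.05. The median log2 fold change of the 10 genes was 2.18, and that of all tested genes was -0.12. The exception was TPM2, at a log2 fold change of 0.56 ± 0.25 (SE, adjusted p = 0.094). No member was lower from Day0 to Day2 at an unadjusted p under 0.05 or by DESeq2 either (0 and 0).

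**Figure D1:**
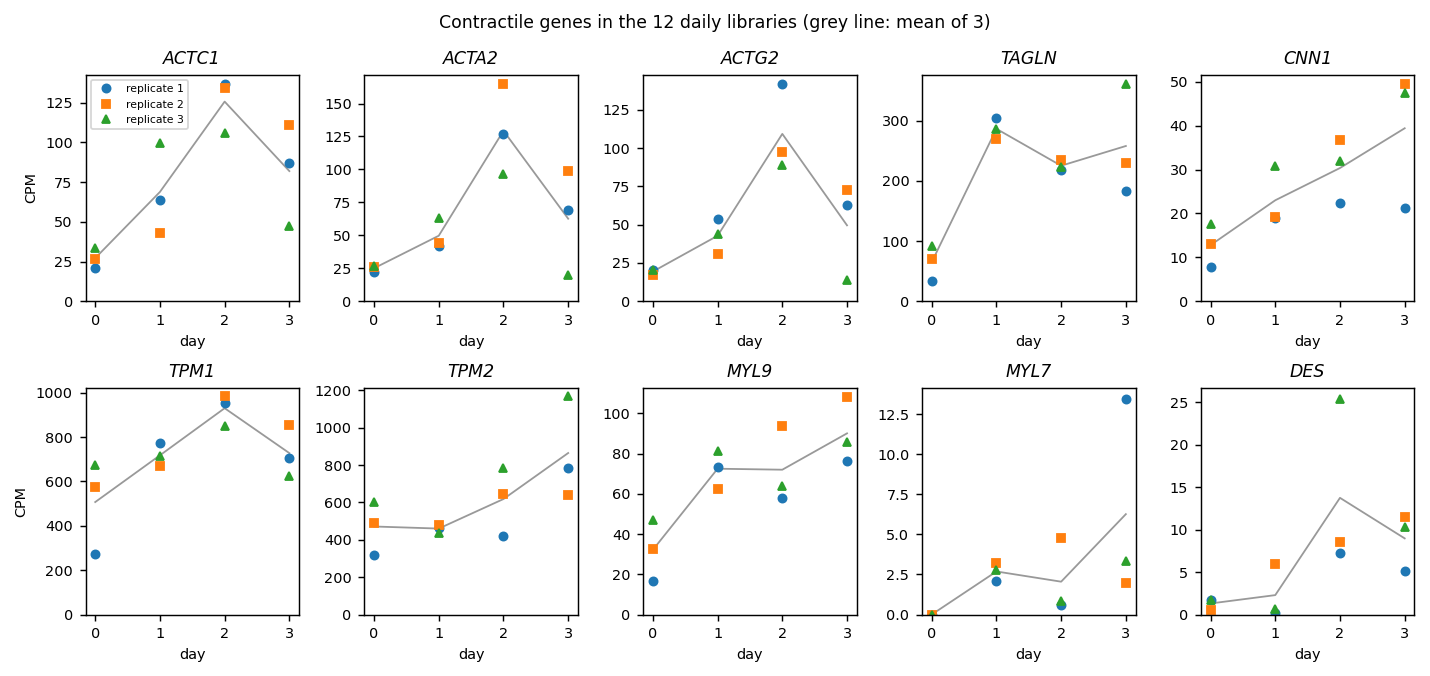
CPM (vertical axis, from 0) of each contractile gene on days 0 to 3, with 3 libraries a day as separate symbols and the mean as a grey line. The 3 muscle actins peak on Day2, TAGLN is already at 269 CPM or more in all Day1 libraries, and TPM2 is highest on Day3.

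The steps between successive days were unequal. From Day0 to Day1, 4 of 10 rose (TAGLN, ACTC1, MYL9 and MYL7) against 2.72% of all genes, and the median log2 fold change was 1.09 against -0.01. From Day1 to Day2 another 4 calls were higher (ACTA2, ACTC1, ACTG2 and DES) against 3.58%, with medians of 0.56 and -0.04. From Day2 to Day3, 2 fell (ACTA2 and ACTG2) against 4.03% called lower, with medians of -0.32 and 0.08. Nothing among the 10 rose at that step (9.03% of all genes did), at an unadjusted p under 0.05 or by DESeq2 (0 and 0). Nor did any fall at either of the first 2 steps by any of these counts (2.46% and 8.16% of all genes). Day3 remained above Day0 for 8 of 10, the exceptions being TPM1 and TPM2, where 7.07% of all genes were called higher and 7.09% lower. Day3 set against Day1 gave 0 calls in edgeR and 0 in DESeq2 (13.8% of all genes in edgeR), and 1 member, TPM2, had an unadjusted p under 0.05.

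**Figure D2:**
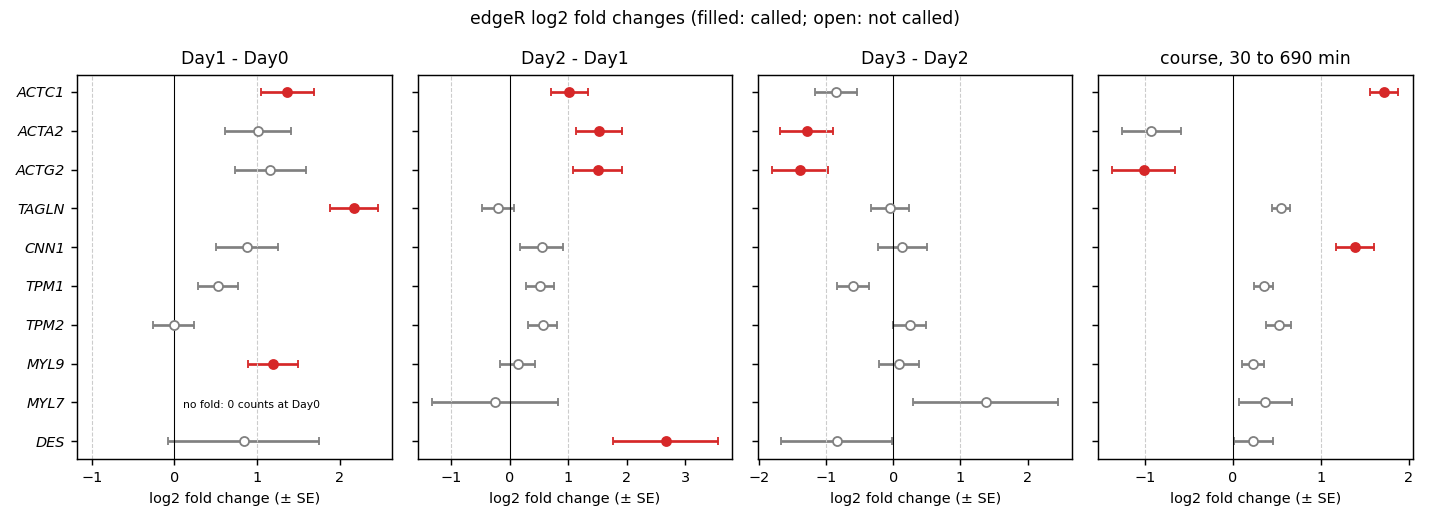
Log2 fold changes with their standard errors for the 3 steps between days and for the fitted change over the 30 to 690 min course, with filled points for calls and dashed lines at 1 and -1. The rises at the first step are those of TAGLN, ACTC1 and MYL9, with MYL7 left out of that panel because Day0 had 0 counts, and the muscle actins rise at the second step.

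ACTC1, the actin of heart thin filaments that embryonic skeletal muscle also uses (chr15:34788095-34795726, minus strand), rose at both of the first steps. Its libraries stood at 21.0, 26.7 and 33.8 CPM on Day0, 63.9, 43.2 and 99.5 on Day1, 136.9, 134.3 and 105.8 on Day2, and 87.3, 111.1 and 47.5 on Day3. Values for Day0, Day1 and Day2 did not overlap, whereas the Day3 range ran from within Day1 to within Day2. The log2 fold change was 1.37 ± 0.32 (adjusted p = 0.0144) from Day0 to Day1 and 1.02 ± 0.31 (0.0309) from Day1 to Day2, by edgeR. Over both steps it was 2.39 ± 0.33 (8.54e-05), and from Day0 to Day3 it was 1.53 ± 0.32 (0.00253). The difference from Day2 to Day3, -0.86 ± 0.31 (0.0586), did not pass. The first rise was lost without Day0 replicate 1, Day0 replicate 2 or Day1 replicate 3, with adjusted p up to 0.0967. The second was lost without Day1 replicate 1 or 2 or Day2 replicate 1 or 2 (up to 0.145), as well as on log2(TPM + 1) with limma (0.0657), and the difference from Day2 to Day3 passed without Day2 replicate 3 (0.0401) or Day3 replicate 2 (0.0268).

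ACTA2, the actin of vascular smooth muscle (chr10:88935074-88991339, minus strand), peaked on Day2 of the daily series. Its CPM values were 22.2, 26.1 and 26.8 on Day0, 41.8, 43.9 and 63.4 on Day1, 126.5, 164.8 and 96.7 on Day2, and 69.2, 98.9 and 19.8 on Day3. All Day1 libraries lay above all Day0 libraries and all Day2 libraries above both, while Day3 replicate 3 fell below every Day0 value. The rise from Day1 to Day2 was 1.53 ± 0.40 on the log2 scale (adjusted p = 0.013), and the change from Day2 to Day3 was -1.29 ± 0.39 (0.0271), by edgeR. The first step, 1.01 ± 0.40, did not pass (0.141), though without Day3 replicate 3 it did (0.0125). From Day0 to Day2 the change was 2.55 ± 0.41 (0.000313), and from Day0 to Day3 it was 1.26 ± 0.40 (0.0321).

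ACTG2, the actin of enteric smooth muscle (chr2:73892314-73919865, plus strand), had much the same course. It read 20.7, 17.3 and 20.2 CPM on Day0, 53.5, 30.8 and 44.0 on Day1, 141.7, 97.5 and 88.9 on Day2, and 62.7, 72.4 and 13.7 on Day3. Day2 stood clear of every other day, and Day3 replicate 3 was again the lowest of the 12. The rise from Day1 to Day2 was 1.51 ± 0.42 (adjusted p = 0.0196) and the change to Day3 was -1.38 ± 0.42 (0.026), by edgeR. The first step measured 1.16 ± 0.43 (0.114), which passed without Day3 replicate 3 (0.00628), and Day0 to Day2 measured 2.67 ± 0.44 (0.000373). Day0 to Day3 measured 1.28 ± 0.43 (0.0404).

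Single libraries decided several calls of these 2 genes. The falls from Day2 to Day3 were not called without Day3 replicate 3 (ACTA2 -0.85, ACTG2 -0.92, both under the fold limit), nor for ACTA2 without Day2 replicate 2 (adjusted p = 0.0873) or Day3 replicate 1 (0.0501), nor for ACTG2 without Day2 replicate 1 (0.0775). The rise from Day1 to Day2 was lost for ACTA2 without Day1 replicate 2 (0.0637), and for ACTG2 without Day1 replicate 2 (0.0971), Day1 replicate 3 (0.0587) or Day2 replicate 1 (0.0602). Day3 above Day0 was lost without any 1 Day0 library or without Day3 replicate 1 or 2, for both genes, with adjusted p up to 0.209. For ACTG2 it was lost as well without Day1 replicate 1 (0.0504), Day1 replicate 3 (0.0542) or Day2 replicate 2 (0.0528). Day2 above Day0 held for both genes without any 1 of the 12 libraries. Fitted on only the 6 libraries of Day2 and Day3, the falls had adjusted p of 0.0969 and 0.0894. On log2(TPM + 1) with limma, Day3 above Day0 had 0.143 for ACTA2 and 0.153 for ACTG2.

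The 2 POTE genes moved in step with ACTA2 and ACTG2. POTEF lay at 20.6 to 38.4 CPM on Day0, 42.8 to 82.6 on Day1, 123 to 142 on Day2 and 13.6 to 77.7 on Day3, and POTEE at 47.6 to 54.3, 85.5 to 142, 200 to 318 and 22.9 to 158. Day3 replicate 3 was the lowest of its day for both, as it was for ACTA2 and ACTG2. ACTB, in contrast, stayed between 1921 and 2641 CPM on all days. Across the 12 daily libraries the genes most like ACTG2 on log2 CPM were HNRNPA1L2 (r = 0.99) and RPL5 (0.99). Those most like ACTA2 were LMOD3 (r = 0.98) and TUBA3D (0.98). In the course HNRNPA1L2 (r = 0.91 over 46 libraries) and RPL10L (0.91) were the closest to ACTA2, and HSPA1L (0.93) and HNRNPA1L2 (0.92) were the closest to ACTG2. HNRNPA1L2 is an intronless copy of an abundant gene. These correlations are over libraries that share days, times and depth. Over the 12 daily libraries POTEE and POTEF correlate with ACTG2 at 0.97 and 0.96, and with ACTA2 at 0.96 and 0.90. Because their mean moves with the days, a fit that holds it cannot separate a change with the day from one shared with them. With the mean level of POTEE and POTEF as a covariate, an alternative chosen after seeing the data, neither ACTA2 (adjusted p = 0.166) nor ACTG2 (0.186) differed among the days, and ACTC1 from Day0 to Day2 missed the threshold (1.30, 0.0561). Of the 9 rises from Day0 to Day2, that of TAGLN alone was then called, and 413 genes in all against 2514 without the covariate. DES, CNN1 and MYL9 missed on p and not on size, as ACTC1 did. The log2 changes of DES and CNN1 were 4.41 (adjusted p = 0.0807) and 1.62 (0.144) against 3.50 and 1.42 without the covariate, and that of MYL9 was 1.09 (0.227). MYL7, with 0 counts on Day0 and so no measured fold, missed on p (0.173). ACTA2, ACTG2 and TPM1 went under the fold limit, at 0.78 (0.285), 0.63 (0.31) and 0.69 (0.329). The part of read sharing in these results was not tested.

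**Figure D3:**
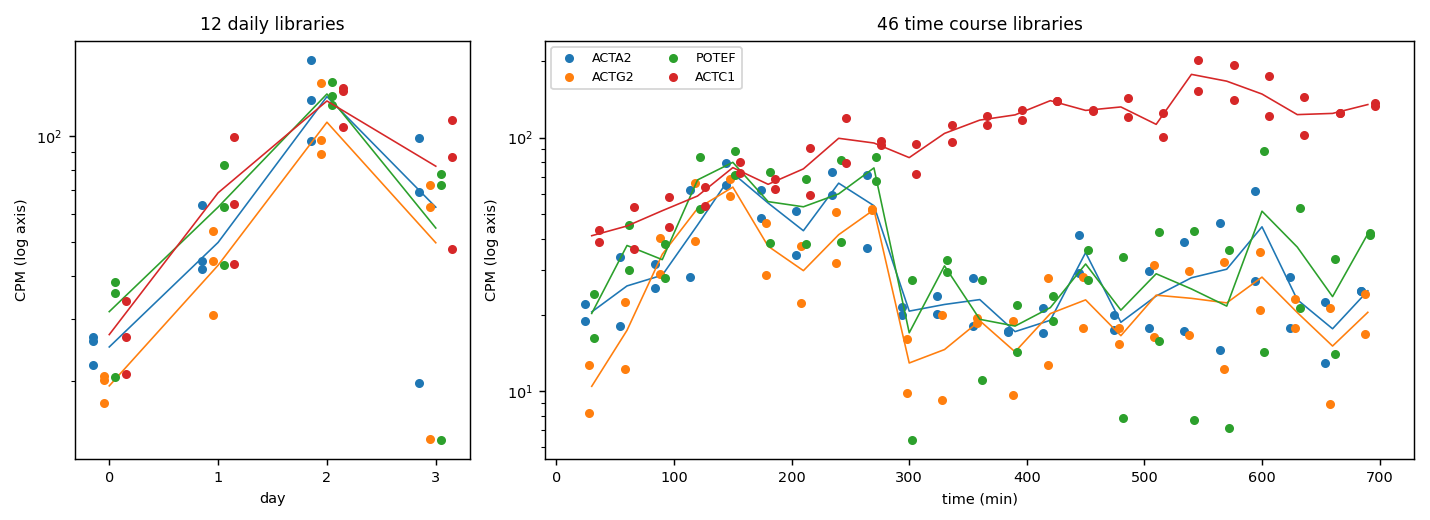
CPM of ACTA2, ACTG2, POTEF and ACTC1 on a log axis by day (left) and by time in the course (right), with a point per library and lines through the means. POTEF tracks ACTA2 and ACTG2 on all days and is lower with them at 300 than at 270 min, while ACTC1 is higher late than early in the course, with its highest mean at 540 min.

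TAGLN, transgelin (chr11:117199321-117204782, plus strand), had the clearest first step. It was at 32.9, 69.7 and 92.1 CPM on Day0, 304.5, 268.7 and 285.5 on Day1, 218.1, 233.8 and 223.1 on Day2, and 183.4, 229.8 and 360.0 on Day3. Day0 lay below every later library. The rise to Day1 was 2.17 ± 0.29 on the log2 scale (adjusted p = 0.000141, edgeR), with no further change called: -0.20 ± 0.28 (0.651) to Day2 and -0.05 ± 0.28 (0.925) to Day3. Day0 to Day2 was 1.97 ± 0.29 (0.000151) and Day0 to Day3 was 1.92 ± 0.29 (0.000153). Each of these 3 calls held without any 1 of the 12 libraries. The gene most like it across the days was CD44 (r = 0.96).

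CNN1, calponin (chr19:11538717-11550323, plus strand), was higher on Day2 and Day3 than on Day0, by steps of which none passed alone. Its libraries read 7.84, 13.0 and 17.5 CPM on Day0, 19.0, 19.2 and 30.8 on Day1, 22.3, 36.8 and 31.9 on Day2, and 21.2, 49.6 and 47.5 on Day3. Every later library lay above Day0, and the later days overlapped one another. The log2 changes of the 3 steps were 0.88 ± 0.38 (adjusted p = 0.181), 0.55 ± 0.37 (0.318) and 0.14 ± 0.37 (0.824), by edgeR. From Day0 the rise was 1.42 ± 0.38 to Day2 (0.00952) and 1.56 ± 0.38 to Day3 (0.00666). The difference among all days was lost without Day0 replicate 1 (0.0515).

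TPM1 and TPM2, the tropomyosins (chr15:63042632-63071915, plus strand, and chr9:35681992-35690121, minus strand), are used in many cell types and were the most abundant of the 10. Per length, TPM2 averaged 957 ± 300 TPM and TPM1 726 ± 290 on Day0 (SD, n = 3), against 133 ± 59.6 for TAGLN, the next highest. TPM2 and TPM1 lay within each other's SD on Day0, and both were clear of TAGLN. By Day3 TPM2 stood at 1640 ± 562 TPM, TPM1 at 990 ± 195, TAGLN at 501 ± 193 and MYL9 at 170 ± 34.4.

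TPM1 rose from Day0 to Day2 and not beyond. Its values were 270.9, 574 and 676 CPM on Day0, 773, 667 and 713 on Day1, 956, 986 and 849 on Day2, and 707, 853 and 623 on Day3. Day2 lay clear of Day0 and Day1, and Day3 overlapped all of them. From Day0 to Day2 the log2 change was 1.05 ± 0.24 (adjusted p = 0.00365, edgeR), which dropped under the fold limit at 0.75 without Day0 replicate 1. With the POTEE and POTEF covariate it was 0.69 (0.329).

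TPM2 had its highest mean on Day3, and none of its steps or pairs of days was called. It read 317.6, 492 and 604 CPM on Day0, 461, 481 and 438 on Day1, 422, 646 and 786 on Day2, and 784, 639 and 1171 on Day3. All Day3 libraries lay above all Day0 and Day1 libraries, and they overlapped Day2. The log2 change from Day1 to Day3, 0.81 ± 0.25, passed on p (0.0265) and not on size, as did that from Day0 to Day3 (0.80 ± 0.25, 0.027). Without Day0 replicate 3 the latter was called (1.05, 0.0137). The difference among all days (0.0221) was lost without Day1 replicate 3 (0.0512) or Day3 replicate 3 (0.0593), and on log2(TPM + 1) with limma (0.062). The most alike gene across the days was TNNT1 (r = 0.91), slow skeletal troponin T.

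MYL9, the regulatory light chain of smooth muscle and nonmuscle myosin (chr20:36541484-36551447, plus strand), rose once, from Day0 to Day1. Its libraries held 16.9, 32.6 and 47.1 CPM on Day0, 73.4, 62.6 and 81.5 on Day1, 58.1, 94.0 and 64.0 on Day2, and 76.1, 108 and 86.0 on Day3. Day0 was below every other day, and Day1 to Day3 overlapped. The log2 change was 1.20 ± 0.30 (adjusted p = 0.0216, edgeR) to Day1, 1.34 ± 0.30 (0.00361) from Day0 to Day2 and 1.42 ± 0.30 (0.00274) from Day0 to Day3. The first of these was lost without Day0 replicate 1 or 2 or Day1 replicate 1 or 3 (up to 0.0814), and the others were not lost without any 1 library. TAGLN was the gene most like it (r = 0.91).

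MYL7, the regulatory light chain of the heart's atria (chr7:44138864-44141332, minus strand), was listed at 0 counts in all 3 Day0 libraries and counted in every later one. It read 2.07, 3.20 and 2.80 CPM on Day1, 0.570, 4.75 and 0.834 on Day2, and 13.5, 1.99 and 3.33 on Day3. The 3 later days overlapped, and Day3 replicate 1 stood above all others. Set against 3 counts over the Day0 libraries together (0.157 CPM), the pooled level was at least 17.5-fold higher on Day1, at least 12.4-fold on Day2 and at least 38.4-fold on Day3. Of the 20 counts on Day2, 15 came from replicate 2, without which the bound was 4.49-fold, and without replicate 1 the Day3 bound was 18.1-fold. The adjusted p was 0.0193, 0.00782 and 0.0029 in that order, by edgeR. The call on Day1 was lost without any 1 of the Day0 libraries or Day1 replicate 2 (up to 0.0653), and those on Day2 and Day3 held without any 1 library. The TPM of MYL7 remained low, at 23.6 ± 22.9 on Day3 (SD, n = 3).

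DES, desmin (chr2:219418377-219426739, plus strand), was scarce and rose at the second step. It stood at 1.70, 0.530 and 1.68 CPM on Day0, 0.227, 5.99 and 0.646 on Day1, 7.21, 8.59 and 25.4 on Day2, and 5.07, 11.5 and 10.4 on Day3. The lower values of Day0 and Day1 are at or near the level that a count of 0 allows. Day2 lay above all of Day0 and Day1, although Day1 replicate 2 came close, and Day3 overlapped Day1 and Day2. The rise from Day1 to Day2 was 2.67 ± 0.89 (adjusted p = 0.0446, edgeR), and the change from Day0 was 3.50 ± 0.93 to Day2 (0.00932) and 2.66 ± 0.91 to Day3 (0.0457). The Day1 to Day2 call was lost without Day0 replicate 3, Day1 replicate 1 or 3, Day2 replicate 2 or 3, or Day3 replicate 2 or 3 (up to 0.168), and on the 6 libraries of those days alone (0.0637). The Day0 to Day3 call was lost without any 1 Day0 or Day3 library or without Day2 replicate 3 (up to 0.158). The difference among all days (0.0142) was lost without Day2 replicate 3 (0.0568). Day3 above Day1, 1.83 ± 0.87 (0.16), was called without Day1 replicate 2 (4.25, 0.00911).

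Markers of other cell types moved over the same days. The neural list (4 of 4 genes at 1 CPM or more) summed to 80.6 to 133 CPM on Day0, 374 to 632 on Day2 and 220 to 427 on Day3. The endothelium and blood list (4 genes) was lower on Day3, at 4.76 to 9.54 CPM, than on Day0, at 89.1 to 121. The definitive endoderm list (3 genes) lay at 0.344 to 13.9 CPM on Day0 and 0 to 1.33 on Day3. The fibroblast list (4 of 5 genes at 1 CPM or more on Day3) reached 635 to 1008 CPM on Day3 against 138 to 237 on Day0. The smooth muscle list (4 of 4 genes on both days) summed to 13.3 to 25.0 CPM on Day0 and 43.4 to 50.8 on Day3. The cardiac and lateral list (5 of 9 genes on Day3) lay at 14.6 to 27.3 and 30.2 to 72.3 CPM, with NKX2-5 and HAND2 at 0 counts on both days. Their part in the results was not tested. In these bulk cultures, more cells of a type and more RNA per cell cannot be told apart.

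Over the time course, 8 of the 10 genes differed among the 23 time points (edgeR, 22 degrees of freedom), where 28.9% of 13653 tested genes did. The exceptions were DES (adjusted p = 0.251) and MYL9 (0.267). Fitted as a straight line from 30 to 690 min, ACTC1 and CNN1 rose and ACTG2 fell, so 2 of 10 were called higher against 5.78% of all genes and 1 lower against 6.34%. The median fitted change was 0.36 log2 units for the 10 genes and -0.02 for all. Between the first 3 and the last 3 time points only ACTC1 passed both limits (4.77% of all genes called higher), and 0 fell (4.68%), at an unadjusted p under 0.05 or by DESeq2 as well (0 and 0).

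**Figure D4:**
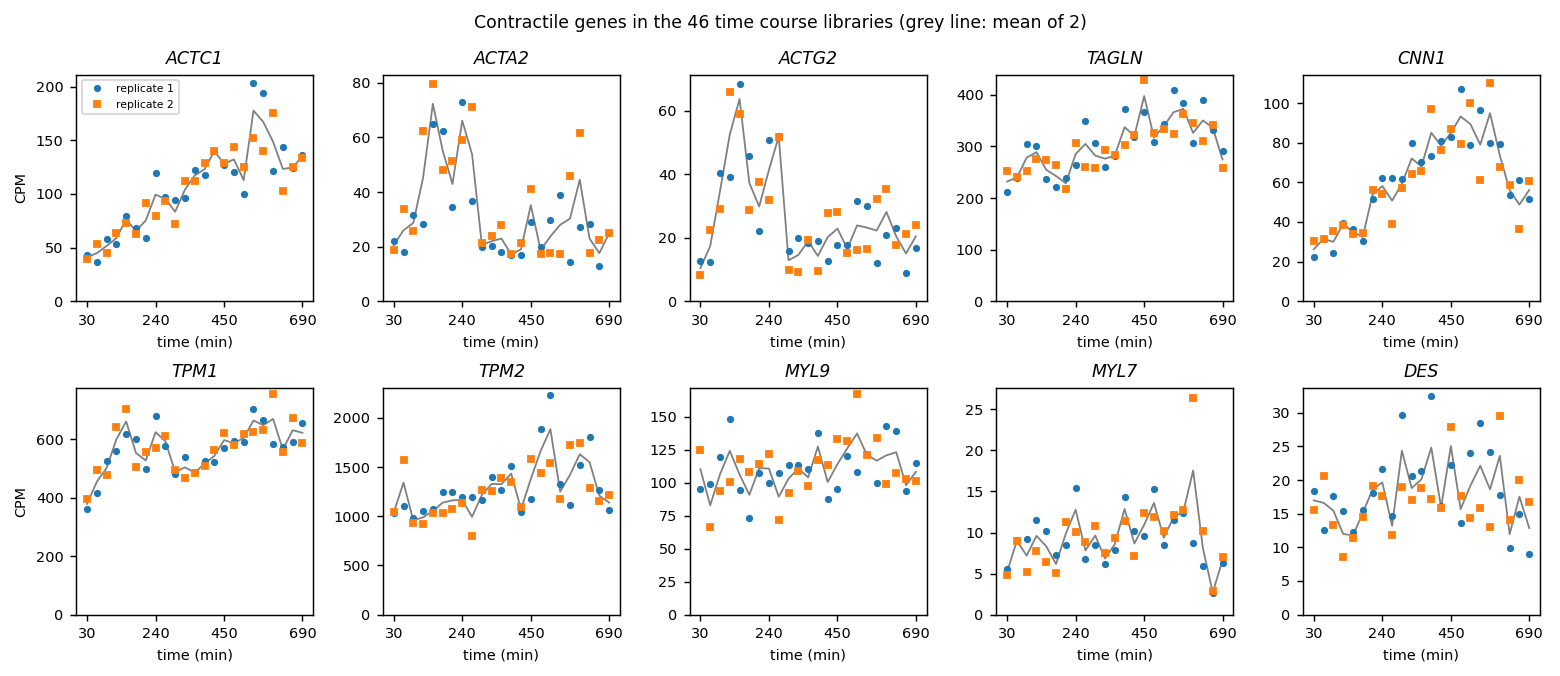
CPM (vertical axes, from 0) of each contractile gene at the 23 time points of the course, with both replicates as symbols and their mean as a grey line. ACTC1 and CNN1 climb, ACTA2 and ACTG2 are high from 120 to 270 min and low at 300 min, and DES and MYL9 scatter.

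ACTC1 had the largest fitted change of the 10 in the course, and the largest difference between its start and its end. Its 6 libraries at 30 to 90 min lay between 36.4 and 58.4 CPM (median 43.9), and the 6 at 630 to 690 min between 102 and 144 (median 129), with no overlap. The log2 difference was 1.50 ± 0.14 (adjusted p = 1.13e-12), and the linear fit gave 1.72 ± 0.16 (1.46e-13), by edgeR. The highest mean was at 540 min, from libraries of 152 and 203 CPM. Closest in pattern were CBLN1 (r = 0.92) and COL5A3 (0.91) over the 46 libraries.

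CNN1 was highest late in the course and lower again at its end. It lay between 22.1 and 35.6 CPM (median 30.8) at 30 to 90 min, at 79.8 and 110 CPM at 570 min, and between 36.6 and 61.0 (median 56.1) at 630 to 690 min. The early and late libraries did not overlap. The linear rise was 1.39 ± 0.22 log2 units (adjusted p = 5.55e-07), and the late against early difference was 0.89 ± 0.15 (3.31e-06), under the fold limit, by edgeR. It passed that limit without replicate 2 of 660 min (1.00). Over 120 to 690 min alone the linear change was 0.80 (0.00321), under the limit.

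ACTA2 and ACTG2 did not follow ACTC1. ACTA2 had 18.1 to 33.9 CPM (median 23.9) at 30 to 90 min and 12.9 to 28.2 (median 23.6) at 630 to 690 min, with its highest mean, 72.3, at 150 min. ACTG2 had 8.19 to 40.3 CPM (median 17.6) early and 8.93 to 24.1 (median 19.5) late, with its highest mean, 63.8, at 150 min. Both read lower at 300 than at 270 min, ACTA2 going from 36.6 and 71.2 CPM to 19.9 and 21.4, and ACTG2 going from 51.8 and 52.2 to 9.84 and 16.0. POTEF went from 67.7 and 84.2 to 6.44 and 27.5 CPM over the same interval. ACTC1 in those libraries read 93.5 and 96.9, then 72.1 and 94.7. The Day2 levels of ACTA2 and ACTG2 were not reached in the course, though both carry the presomitic label. The highest course library of ACTA2 was at 79.7 CPM, against 96.7 to 165 on Day2. That of ACTG2 was at 68.5, against 88.9 to 142. That of ACTC1, at 203, was above its Day2 range of 106 to 137. The 2 series were not tested against each other.

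The linear change was -1.02 ± 0.36 for ACTG2 (adjusted p = 0.0217), which was called, and -0.93 ± 0.33 for ACTA2 (0.0251), which missed the fold limit, by edgeR. The call of ACTG2 was lost without any 1 of 22 of the 46 libraries, the smallest fitted change then being -0.87. In 20 of these cases it was lost on size alone, and the adjusted p went over 0.05 without 120 min replicate 2 (0.0531) or 150 min replicate 1 (0.0522). It was lost as well without all of replicate 1 (-0.75, 0.291) or all of replicate 2 (-1.26, 0.0577), and on log2(TPM + 1) with limma (-0.61, 0.178). ACTA2 passed the fold limit without 30 min replicate 1 or 2, 60 min replicate 1, or replicate 2 of 570 or 600 min (-1.01 to -1.13). With the POTEE and POTEF covariate, chosen after seeing the data, the fitted change of ACTG2 turned to 0.32 (0.251) and its difference among time points was lost (0.274). Over the 46 libraries ACTG2 correlates with POTEE at 0.82 and with POTEF at 0.79. That fit therefore cannot separate a change with time from one shared with them. Read sharing was not tested as a source of these values.

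TAGLN, TPM1 and TPM2 shifted by less than the fold limit. TAGLN had 212 to 305 CPM (median 246) at 30 to 90 min and 259 to 390 (median 321) at 630 to 690 min, with overlap, and a fitted rise of 0.54 ± 0.10 (adjusted p = 1.59e-05, edgeR). TPM1 had 363 to 527 CPM (median 446) early and 557 to 672 (median 590) late, with no overlap, and a fitted change of 0.35 ± 0.11 (0.0102). TPM2 had 936 to 1573 CPM (median 1037) early and 1064 to 1808 (median 1239) late, with overlap, and a fitted change of 0.52 ± 0.14 (0.00341). At an adjusted p under 0.05 with no fold limit, 16.1% of all genes were higher along the course.

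MYL7, MYL9 and DES showed no slope that passed. MYL7 ranged over 2.57 to 26.4 CPM (median 9.01) in the 46 libraries, so no course library was at 0, and its fitted change was 0.37 ± 0.30 (adjusted p = 0.378, edgeR). Its difference among time points (0.0147) was lost without 660 min replicate 1 (0.0686), 1 of the 2 lowest libraries at 2.57 and 2.81 CPM. MYL9 ranged over 66.5 to 167 CPM (median 108), with a fitted change of 0.23 ± 0.12 (0.153). DES ranged over 8.56 to 32.5 CPM (median 17.1), with a fitted change of 0.23 ± 0.22 (0.458).

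The course was set up around HES7, a repressor of the segmentation clock, so a rhythm with a period of 300 min was tested beside a curved trend. None of the 10 was called (0 in edgeR, against 0.132% of all genes), 3 had an unadjusted p under 0.05, and 2 were called by DESeq2. The nearest were ACTA2 (adjusted p = 0.0612, 2.29-fold from trough to peak), TPM1 (0.064, 1.29-fold) and ACTG2 (0.129, 2.16-fold). HES7 itself, set as the check of this test, was not called either (0.406, 1.59-fold). Since the check was missed, the 0 calls cannot show that the 10 genes lack a rhythm. ACTA2 and TPM1 were called by DESeq2 (0.0327 and 0.0232). ACTA2, TPM1 and ACTG2 were called at a period of 330 min (0.00238, 0.00295 and 0.012) and with no filter on low counts (1.4e-11, 0.0103 and 4.73e-08). These settings raised the calls of all genes as well. They were 18 in the main fit, 246 by DESeq2, 615 at 330 min and 644 with no filter. ACTA2 was called as well without any 1 of 11 of the 46 libraries (0.0285 to 0.0485) and TPM1 without any 1 of 6 (0.0377 to 0.0498).

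Other genes of the contractile apparatus were read from lists chosen by function. Of 17 cytoplasmic paralogs and nonmuscle genes, 10 differed among the days (43.6% of all genes did), and their median log2 change from Day0 to Day3 was -0.06 against 0.04 for all genes. TAGLN2, the widespread relative of transgelin, rose from Day0 to Day1 by 2.14 ± 0.24 log2 units (adjusted p = 2.34e-05, edgeR) and fell by 1.31 to Day2 (0.00154). MYL6, an essential light chain, was at 775 to 971 CPM on Day0 and 1588 to 2737 on Day3 (1.36 ± 0.19, 7.57e-05). TPM3 differed among the days (0.000765) with no step called, and VCL, vinculin, differed both among the days (0.0244) and among the time points (1.92e-05).

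The smooth muscle list had 10 of 12 genes tested and 3 called among the days (43.6% of all genes), all higher on Day3 than on Day0, with a median log2 change of 1.23 over the list. PDLIM7, a scaffold of actin filaments, rose by 2.11 ± 0.34 (adjusted p = 0.000329, edgeR), SMTN, smoothelin, by 1.42 ± 0.39 (0.0142) and CSRP1, a LIM protein, by 1.47 ± 0.32 (0.00309). In the course, 2 of 10 tested genes of this list rose along the fitted line, against 5.78% of all genes. CALD1, caldesmon, went from 439 to 683 CPM (median 471) at 30 to 90 min to 900 to 1285 (median 963) at 630 to 690 min, a fitted change of 1.50 ± 0.14 (1.97e-13). MYOCD, the smooth muscle and cardiac partner of SRF, was at 0 to 0.305 CPM (median 0) early, under the level that 0 counts allow, and at 3.01 to 9.28 (median 4.42) late, with no overlap.

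Of the skeletal muscle list, only 5 of 15 genes in the tables passed the filter on the days, and 3 of these were called, against 43.6% of all genes. TNNT1 stood at 39.3 to 81.0 CPM on Day0 and 146 to 387 on Day3 (1.95 ± 0.41, adjusted p = 0.0023, edgeR), and at 129 to 220 CPM (median 152) early and 406 to 838 (median 500) late in the course. ACTA1, the skeletal actin, fell from Day2 to Day3 (-1.25 ± 0.37, 0.0247). Its Day3 libraries read 58.4, 62.2 and 19.1 CPM, all below the Day2 range of 73.7 to 108, and replicate 3 was lowest as for ACTA2 and ACTG2. With up to 2 mismatches, 4.18% of the 36-base windows of ACTA2 and 1.91% of those of ACTG2 matched ACTA1. The part of read sharing in its values was not tested. CHRNA1, a subunit of the muscle acetylcholine receptor, differed among the days (0.0183). It was low throughout, at 2.07 to 2.69 CPM on Day1, 0 on Day0 and Day2, and 0 to 0.443 on Day3.

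Among cardiac sarcomere genes, 7 of 12 passed the filter on the days and 2 of these were called, against 43.6% of all genes. TNNC1, slow troponin C, was at 0.344 to 2.12 CPM on Day0 and 10.6 to 28.6 on Day3 (4.05 ± 0.88, adjusted p = 0.00309, edgeR), and rose along the course by 1.99 ± 0.20 (2.95e-12). TTN, titin, rose from Day1 to Day2 (2.94 ± 0.86, 0.0248) and along the course by 2.54 ± 0.25 (4.65e-13). Its libraries ran from 0.915 to 22.9 CPM on Day0, 1.84 to 7.20 on Day1 and 12.8 to 52.8 on Day2, so Day0 and Day2 overlapped. In the course 4 of 9 tested genes of this list rose along the fitted line, against 5.78% of all genes.

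The SRF list had 6 of 15 genes called among the days, against 43.6% of all genes, and 6 of 15 among the time points, against 28.9%. RHOB, a small GTPase, swung with each step: 3.86 ± 0.44 to Day1 (adjusted p = 2.38e-05, edgeR), -2.39 ± 0.42 to Day2 (0.0011) and 2.36 ± 0.41 to Day3 (0.00107). ANKRD1 rose from Day2 to Day3 (3.23 ± 0.91, 0.0187), and THBS1 fell (-1.55 ± 0.29, 0.00159). The Day3 libraries of THBS1 read 65.3, 80.5 and 31.5 CPM, all below the Day2 range of 128 to 158, with replicate 3 again the lowest. Of 8 desmin partners and intermediate filament genes, 5 were called among the days and 6 among the time points, against 43.6% and 28.9% of all genes. VIM, vimentin, rose by 1.36 ± 0.17 at the first step (6.99e-05) and by 1.36 ± 0.17 at the second (7.62e-05). NES, nestin, rose from Day2 to Day3 (1.05 ± 0.24, 0.00621), as did PLEC, plectin (1.74 ± 0.34, 0.00209). DMD, dystrophin, rose along the course by 2.84 ± 0.20 (1.21e-18), from 5.75 to 8.73 CPM (median 7.18) to 39.8 to 84.6 (median 55.0).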

How the data were processed

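RNA was measured by LM-seq of total RNA from 58 samples, grouped by day, time and replicate number as the labels give them. The authors deposited 2 tables of 19084 genes, one of expected counts (estimates that can be fractional) and one of TPM rescaled to an equal sum per library. The submitters' processing notes list the aligner Bowtie 0.12.2 and, as builds, mm8 beside hg19. The quantifier, the annotation and the part mm8 played are not given in sources used here. Coordinates and sequences come from GENCODE release 29 (GRCh38) and RefSeq (GRCh38.p14), not from the files.

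Rounded expected counts went into edgeR 4.0.16 in R 4.3.3 (TMM, filterByExpr, quasi-likelihood F tests), adjusted by Benjamini-Hochberg over all genes tested (12765 for days, 13653 for the course). A pairwise or trend call needs at least 1 log2 unit of change as well as an adjusted p under 0.05. All 4 days shared 1 fit and 1 estimate of the spread. In the course, the 23 time points, the straight line and the rhythm were fitted separately, each with its own estimate of the spread. When 1 course library was left out, the fit of the time points kept the trend of spread with expression level from all 46 libraries. Depth and its limits are given with the results. A script was tested on simulated data first. No 2 replicate libraries agreed within sampling noise.

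Named genes are the 10 members, up to 3 called genes by day and 2 by course from each of 6 lists, and the genes closest to a member by Pearson r on log2 CPM (mean of 5 CPM or more). Members and lists were chosen with earlier results of these data known. Alternatives were DESeq2 1.42.0, limma 3.58.1 on log2(TPM + 1) and log2(TPM + 0.1), RLE scaling, no filter, a replicate block, subsets of libraries or times, other periods, leaving out each library, and a POTEE and POTEF covariate chosen after seeing the data. Some stretches of sequence are not reported here.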

Additional observations from a re-analysis of the deposited data

Results flagged for a closer look

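In 2 of 20 groups of 6 course libraries, 1 library stood far from the other 5, and both concern TPM2. At 30 to 90 min, replicate 2 of 60 min was highest at 1573 CPM, with a gap to the next library of 0.73 of the whole range. At 630 to 690 min, replicate 1 of 630 min was highest at 1808 CPM, with a gap of 0.695. Chance alone marks about 1 in 20 such groups.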

How the results depend on the processing

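The rises of the 10 genes from Day0 to Day2 stayed at 8 to 9 of 10 without any 1 library, while counts for single steps moved by more than 1.5 times. The POTEE and POTEF covariate was chosen after seeing the data and itself moves with the days. With it, 3544 genes differed among the days, and 755, 498 and 413 were called for Day1 to Day2, Day2 to Day3 and Day0 to Day2. Members called higher were then 1 for Day0 to Day1, 0 for Day1 to Day2 and 1 for Day0 to Day2, with 0 lower for Day2 to Day3 and 0 lower along the course, where ACTG2 turned to 0.32, and 2 genes were called rhythmic. On the 6 libraries of a pair of days, 1139 genes were called for Day0 to Day1 and 1008 for Day2 to Day3, where members lower were 0. On log2(TPM + 0.1) with limma, members called were 2 higher for Day1 to Day2, 1 lower for Day2 to Day3 and 5 higher for Day0 to Day3. Day1 to Day3 gave 1 member higher on that scale and 1 on log2(TPM + 1), and on both scales 0 were lower along the course and 1 gene was rhythmic. DESeq2 called 6067 genes among time points. Over 120 to 690 min, 1 member was higher and 2 lower along the course. Without all of replicate 1, or all of replicate 2, members lower along the course were 0 and rhythm calls were 1. Rhythm calls over all genes were 644 with no filter (3 members), 246 by DESeq2 (2 members), 2 at 270 min and 615 at 330 min (3 members). The cause was not tested for any of these.

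Leaving out each daily library gave 4673 to 5966 genes among the days (9 to 10 members), 437 to 826 for Day0 to Day1 (1 to 6 members higher), 875 to 1826 for Day1 to Day2 (1 to 4 higher) and 976 to 2059 for Day2 to Day3 (0 to 3 lower). The counts for Day0 to Day2 were 2020 to 2965, for Day0 to Day3 1408 to 2008 (5 to 8 higher) and for Day1 to Day3 1357 to 1953 (0 to 1 higher). Leaving out each course library gave 3534 to 4506 genes among time points (7 to 8 members), 1201 to 1317 late against early (1 to 2 higher), 1591 to 1695 along the course (2 to 2 members higher, 0 to 2 lower) and 1 to 155 rhythm calls (0 to 2 members).

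Replicate numbers did not pair the libraries: libraries of the same number had deviations correlated at -0.154 to 0.223 over the days and at -0.174 to 0.170 over the course, with 3 of 18 and 24 of 506 pairs over 0.1. With a replicate block, 5426 genes differed among the days, 3831 among the time points, and members higher for Day0 to Day3 were 6, DES (0.0727) and ACTG2 (0.0509) missing the threshold. TMM and RLE scaling moved the median of all genes by less than 0.1 log2 units between them. Depth limits DES and MYL7 most, whose lowest daily values lie at or under the level a count of 0 allows.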
